A study of Homo sapiens with 8 samples.

Results

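The homeobox genes outside the HOX clusters encode transcription factors that set regional and cell identity, and their RNA was compared between untreated D283-OMO cells and the same cells treated with doxycycline (DOX) to induce OMOMYC. Genes were chosen by name as protein-coding genes of the SIX-family and of the families LHX, LMX1, ISL, IRX, POU, MEIS, PBX, DLX, EMX, EN, BARHL, CUX, ONECUT and NKX, which gave 76 of the 60668 gene entries in the count files. D283 MED is an established line from a medulloblastoma, a tumour of the cerebellum. Every library came from D283-OMO cells, a population transduced with a lentivirus (pSLIK-OMOMYC) and selected with hygromycin B, which carries a DOX-inducible, Flag-tagged OMOMYC, a dominant-negative form of MYC. The OMO group was 4 libraries of untreated cells. The OMO+DOX group was 4 libraries of cells given 0.25 µg/mL DOX for 72 h. The study describes the replicates as independent biological ones. Both groups carry the transgene and no library of DOX-treated cells without it was analysed here, so effects of DOX itself and of OMOMYC cannot be told apart. As these are bulk libraries, fewer cells of a type and less RNA per cell cannot be told apart either.

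A homeodomain is a DNA-binding fold of which the last helix lies in the major groove and reads the bases. The classes differ in what is added to it. LIM factors add paired zinc-binding LIM domains that recruit LDB1, POU factors add a POU-specific domain, CUT factors add cut domains, SIX-class factors add a domain that binds EYA coactivators, and TALE factors (PBX, MEIS, IRX) carry an extra loop within the homeodomain. Many of these genes pattern the neural tube, the eye and the forebrain, and EN1 and EN2 act at the boundary of midbrain and hindbrain from which the cerebellum arises.

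The codons of the recognition helix are shown for members from each class, because they set the members apart by a feature that the choice by name did not use. The lines below give the coding strand, 5′ to 3′, for a run of codons for tryptophan or phenylalanine, phenylalanine, any residue, asparagine, any residue and arginine, with the codon for the variable residue in capitals.
POU3F2: tggtttTGTaacaggaga
POU3F3: tggttcTGCaatcggcgc
POU6F1: tggttcTGCaatcggcgc
SIX2: tggttcAAGaaccggcgg
SIX5: tggttcAAGaaccggcga
PBX3: tggtttGGCaacaaacga
MEIS2: tggtttATTaatgccaga
IRX2: tggttcGCCaacgcgcgc
CUX1: tggttcCACaactacagg
CUX2: tggttcCACaactacagg
ONECUT2: ttcttcATGaacgcccgg
LHX8: tggtttCAGaattgtaga
LHX3: tggttcCAGaaccgccgg
DLX1: tggttcCAAaacaagcga
DLX2: tggttcCAGaaccgccgg
NKX6-1: tggttcCAGaaccgccgg
EN1: tggttcCAGaacaagcgc
EN2: tggttcCAGaacaagcgc
ISL2: tggttcCAGaacaagcgc
This run was found once in the coding sequence of 73 of the 76 genes in GENCODE release 29, and BARHL1, BARHL2 and POU5F2 did not hold these codons. The capital codon encoded glutamine in all 12 LIM members and all 24 matched members of the NK-like and other ANTP group, cysteine in all 13 matched POU members and lysine in all 6 SIX-class members. Within TALE it encoded glycine in the 4 PBX genes, isoleucine in the 3 MEIS genes and alanine in the 6 IRX genes, and within CUT histidine in the 2 CUX genes and methionine in the 3 ONECUT genes. Among the 70 members whose runs were compared with each other, 9 sets had it letter for letter the same. These were POU3F3 with POU6F1, CUX1 with CUX2, EN1 with EN2 and ISL2, LHX3 with DLX2, NKX6-1 and NKX6-2, DLX4 with DLX6, LHX1 with NKX2-5, NKX1-2 with NKX2-3, NKX2-1 with NKX2-2, and IRX1 to IRX5.

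The 250 bases before the start of POU3F2, POU3F3, DLX1 and DLX2 are shown next because each of these neural genes was near the detection limit or low in OMO and far higher in OMO+DOX. They were read 5′ to 3′ from RefSeq promoters on GRCh38.p14, with each CG dinucleotide in capitals. RefSeq and GENCODE place the start differently for POU3F2, POU3F3 and DLX1.
POU3F2 (chr6:98834324-98834573, plus strand): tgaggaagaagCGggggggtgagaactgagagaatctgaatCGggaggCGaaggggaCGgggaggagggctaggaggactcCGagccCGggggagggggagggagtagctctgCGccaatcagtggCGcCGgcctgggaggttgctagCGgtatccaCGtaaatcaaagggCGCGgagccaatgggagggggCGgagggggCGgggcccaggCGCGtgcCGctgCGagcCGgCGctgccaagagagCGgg
POU3F3 (chr2:104853865-104854114, plus strand): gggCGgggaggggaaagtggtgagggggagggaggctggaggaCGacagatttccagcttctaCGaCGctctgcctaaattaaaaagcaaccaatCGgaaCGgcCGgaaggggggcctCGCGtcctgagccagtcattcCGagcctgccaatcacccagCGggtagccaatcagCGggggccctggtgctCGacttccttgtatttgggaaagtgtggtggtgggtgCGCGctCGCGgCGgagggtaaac
DLX1 (chr2:172085257-172085506, plus strand): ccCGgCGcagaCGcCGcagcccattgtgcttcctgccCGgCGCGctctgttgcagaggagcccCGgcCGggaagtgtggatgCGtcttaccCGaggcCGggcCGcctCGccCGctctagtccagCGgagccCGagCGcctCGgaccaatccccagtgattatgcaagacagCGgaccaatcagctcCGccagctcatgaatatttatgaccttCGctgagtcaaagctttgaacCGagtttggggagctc
DLX2 (chr2:172102901-172103150, minus strand): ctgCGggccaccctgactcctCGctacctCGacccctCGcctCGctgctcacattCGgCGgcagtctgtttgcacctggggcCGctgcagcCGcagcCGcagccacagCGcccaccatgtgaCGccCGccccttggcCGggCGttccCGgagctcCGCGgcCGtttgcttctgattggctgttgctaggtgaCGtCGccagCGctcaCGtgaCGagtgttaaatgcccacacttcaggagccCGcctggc
Of the 76 members, 53 had a RefSeq promoter, with 71 windows of 300 bases (250 before the start and 50 after it). All of these windows held at least 1 CG, against 96.0% of all 35116 windows, and the median number of CG was 25 per member window against 14 in all windows. The letters CACGTG, the canonical E-box of MYC with MAX and the same on both strands, were in 7 of the 71 member windows (9.86%) and in 2548 of all windows (7.26%). Of the printed windows, only that of DLX2 held it, and the others with a match belonged to BARHL2, CUX1, IRX1, LMX1A, NKX1-1 and ONECUT1. Among members higher in OMO+DOX, 2 of 21 windows held it (9.52%), and among members lower in OMO+DOX, 0 of 14. These matches describe letters in the window and not binding.

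Total expected counts per library ranged from 38390696 to 54020506, which puts 3 counts at 0.0581 to 0.0748 counts-per-million (CPM) when library sizes are scaled by TMM, edgeR's trimmed mean method. Of the markers of the tumour's lineage, OTX2 stood at 1029 to 1071 CPM in OMO and 508 to 512 in OMO+DOX. NEUROD1 had a log2FC of -2.23 and ZIC1 of -0.41. EOMES was under the filter on low counts and went the other way, from an average of 0.264 CPM in OMO to 0.777 in OMO+DOX. With MYC, the markers of this list summed to 2056 to 2271 and 1614 to 1757 CPM. MYC was at 880.2 to 1049 and 1047 to 1179 CPM, and reads of the MYC-derived transgene in that value were not tested. Summed over each list, photoreceptor markers (CRX, NRL, RCVRN) went from 149 to 167 CPM in OMO to 22.9 to 24.7. The oligodendrocyte marker MOG was at 0 in every library. Neuron markers summed to 10.7 to 12.9 and 9.31 to 9.97 CPM, fibroblast markers to 22.0 to 23.5 and 21.1 to 25.2, endothelial markers to 2.91 to 3.67 and 2.59 to 3.50, astrocyte markers to 0.194 to 0.775 and 0.198 to 0.449, and microglial and blood markers to 0.163 to 0.252 and 0.414 to 0.723. Among the endothelial markers, CDH5 was at 0 counts in OMO and averaged 1.85 CPM in OMO+DOX, VWF fell from 3.26 ± 0.332 to 1.24 ± 0.184 CPM (log2FC -1.39, SE 0.13, adjusted p = 1.42e-06, edgeR), and PECAM1 was under the filter. Within the neuron and fibroblast lists, markers also went in opposite directions. TUBB3 rose (log2FC 0.73) and SNAP25 fell (log2FC -0.60). COL1A1 did not pass (log2FC 0.09), while COL3A1 and DCN were under the filter. COL3A1 averaged 0.0051 CPM in OMO and 0.335 in OMO+DOX, and DCN 0.601 and 0.0117. The part of these markers in the changes of the homeobox genes was not tested.

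The sums of the classes differed between the groups in both directions, and no test was run on them. The summed level of the 76 members was 1289 ± 66.6 CPM in OMO and 1472 ± 23.2 in OMO+DOX (SD, n = 4, as for all values below). POU members summed to 130 ± 19.6 CPM in OMO and 230.5 ± 7.07 in OMO+DOX, SIX-class members to 106 ± 4.21 and 163 ± 7.18 and CUT members to 209 ± 21.3 and 282 ± 14.6, and no OMO library reached the lowest OMO+DOX library in any of these sums. The order was opposite for LIM members, at 243 ± 3.28 and 149 ± 2.95 CPM, and for the NK-like and other ANTP members, at 74.0 ± 4.24 and 56.3 ± 3.66. The TALE sum was 527 ± 32.4 and 591 ± 5.99 CPM. A sum follows the genes with the most counts, so the members are described class by class.

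A filter on low counts, more than 1 CPM in 4 or more of the 8 libraries, was passed by 37 members, which were tested with edgeR's quasi-likelihood test. A gene is named called where its adjusted p was below 0.001 and its log2FC (OMO+DOX over OMO) above 2 in size. Of the 37 members, 5 were called higher (13.5%), POU3F3, DLX1, POU3F2 and EN2 among them, against 4.38% of the 15222 genes tested, and 0 were called lower, against 2.75%, while 12 had an unadjusted p below 0.05 in that direction. DESeq2's Wald test gave the same counts of 5 and 0. Over all genes and both directions, 7.12% were called. At an adjusted p below 0.05, 20 members were higher (54.1%, against 38.5% of all genes) and 12 were lower (32.4%, against 38.1%). The OMO and OMO+DOX libraries did not overlap for 30 of the 37 members (81.1%), against 71.7% of all genes. The median log2FC of the 37 members was 0.47, against 0.01 over all genes, and the median size of the log2FC was 0.96 against 0.43.

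How members passed the filter bears on these counts. Of the 37 members, 31 were above 1 CPM in all 8 libraries, and of these only POU3F2 was called, while 3.5% of the genes with that much RNA were called; 14 of the 31 were higher and 12 lower at an adjusted p below 0.05. The other 6 members, DLX1, EN2, POU3F3, LMX1B and POU4F1 among them, passed the filter through the OMO+DOX libraries and so had to be higher there. Among all genes that passed in that way, 61.3% were called higher.

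**Figure D1:**
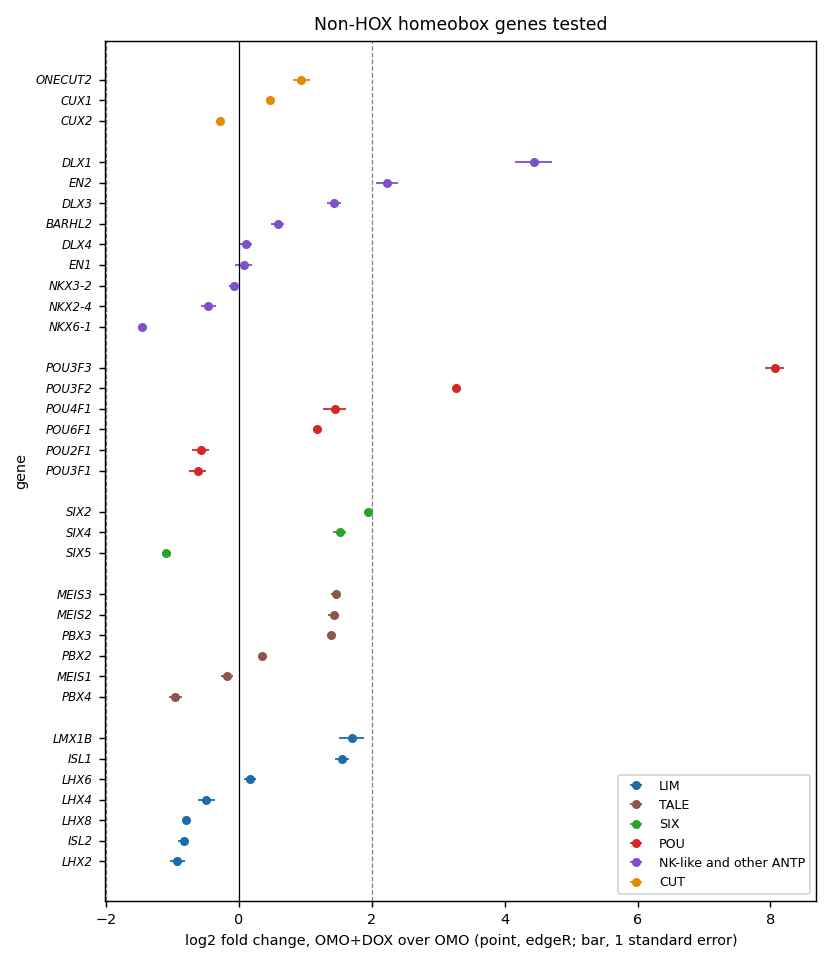
Log2 fold change (horizontal axis, OMO+DOX over OMO) of 34 tested homeobox genes, grouped by class, with bars of 1 standard error and dashed lines at 2 and -2. POU3F3 lies farthest to the right at 8.06 and NKX6-1 farthest to the left at -1.46, and each class holds genes on both sides of 0.

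POU members changed in both directions, and POU3F3 had the largest log2FC of all tested members. POU3F3 (BRN1) and POU3F2 (BRN2) are class III POU factors of neural progenitors and upper-layer cortical neurons. POU3F3 (ENSG00000198914.4, chr2:104855511-104858574, plus strand of GRCh38, as for all genes below) was at 0.102, 0.329, 0.346 and 0.179 CPM in OMO replicates 1 to 4 and at 67.5, 60.5, 65.7 and 67.4 CPM in OMO+DOX replicates 1 to 4. It was near the detection limit in every OMO library and in none of the OMO+DOX libraries (log2FC 8.06, SE 0.14, adjusted p = 1.05e-12, edgeR). From 47 counts in OMO and 12269 in OMO+DOX, its level was 271 times higher, with a 95% interval of 204 to 369 that covers counting error only.

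POU3F2 (ENSG00000184486.10, chr6:98834592-98839470, plus strand) was at 7.2, 7.49, 6.63 and 6.92 CPM in OMO and 70.1, 67.5, 67.4 and 66.1 CPM in OMO+DOX. Its lowest OMO+DOX library was far above its highest OMO library, and both groups were tight (log2FC 3.26, SE 0.05, adjusted p = 5.06e-13, edgeR). The promoters printed above for POU3F3 and POU3F2 hold 18 and 22 CG in 250 bases and no CACGTG. Noncoding PANTR1 starts 2328 bases from POU3F3 in the opposite direction, and it had 0 counts in all OMO libraries and 0.552, 0.797, 0.528 and 0.594 CPM in OMO+DOX. Against the floor of 3 counts per library this was at least 9.99-fold higher, from 114 counts in OMO+DOX.

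POU2F1 (OCT1), a factor made in most cell types, was the highest POU gene per kb of exon in OMO, at 119.6, 111, 76.4 and 111 CPM, and stood at 76.9, 77.9, 66 and 60.5 in OMO+DOX. The groups overlapped through OMO replicate 3, and the change had the smallest size among tested POU members (log2FC -0.57, SE 0.13, adjusted p = 0.00158, edgeR). Its share of the summed POU CPM per kb of exon went from 47.9% ± 5.09 to 9.55% ± 1.27, while POU3F2 and POU3F3 together went from 11.4% ± 1.01 to 76.7% ± 0.668. POU3F1 (OCT6), the class III relative known from Schwann cells, did not follow them and fell from 8.19 ± 0.433 to 5.33 ± 1.15 CPM (log2FC -0.62, SE 0.13, adjusted p = 0.000846, edgeR). POU6F1, whose helix codons match those of POU3F3, rose from 8.38 ± 0.464 to 18.9 ± 1.05 CPM (log2FC 1.18), and POU4F1 (BRN3A), a factor of sensory neurons, from 0.595 ± 0.162 to 1.62 ± 0.152 CPM (log2FC 1.44).

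**Figure D2:**
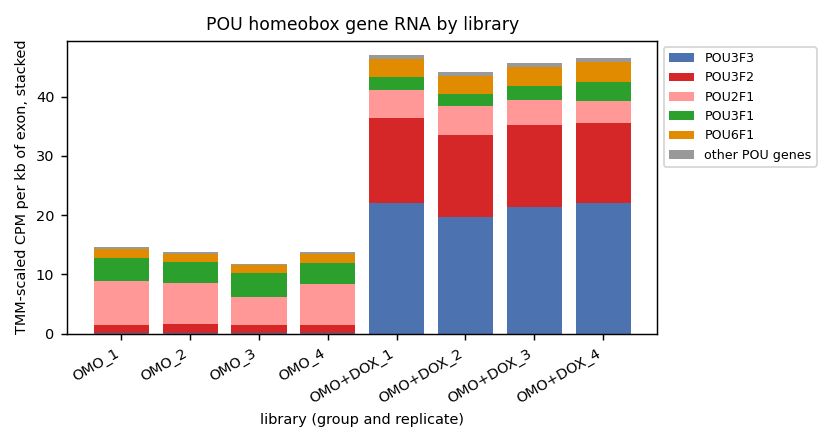
TMM-scaled CPM per kb of annotated exon of the POU genes (vertical axis) in each of the 8 libraries, stacked by gene. POU2F1 makes up 47.9% of the OMO bars on average, and POU3F2 and POU3F3 together make up 76.7% of the OMO+DOX bars.

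SIX-class factors act in kidney, muscle, sensory placodes and eye. SIX2, known from the self-renewing progenitors of the kidney (ENSG00000170577.8, chr2:45005161-45009430, minus strand), was at 26.3, 25, 28.2 and 24.6 CPM in OMO and 97.2, 94.6, 104 and 105 in OMO+DOX. The groups lay far apart and the fold was 3.86 (log2FC 1.95, SE 0.06, adjusted p = 7.13e-11, edgeR), just short of the log2FC of 2 that a call needs, while EN2 at 2.23 was just past it. SIX4, a factor of muscle and placodes, rose from 6.87 ± 0.908 to 19.7 ± 1.45 CPM (log2FC 1.52, SE 0.09, adjusted p = 3.68e-08, edgeR). SIX6, a retinal and pituitary factor, went from 0.352 ± 0.113 to 0.926 ± 0.0865 CPM, below the filter.

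SIX5 was the exception and fell, from 67.8, 67.3, 70.9 and 63.8 CPM to 31.8, 27.5, 32.3 and 34.9 CPM (log2FC -1.09, SE 0.07, adjusted p = 3.66e-08, edgeR). SIX5 had non-whole counts in all 8 libraries, so RSEM shared some of its reads with other genes, and its value is uncertain to that extent. SIX3, which starts 67.5 kb from SIX2 on the opposite strand, was at 0.483 ± 0.127 and 0.462 ± 0.0951 CPM and was not tested.

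**Figure D3:**
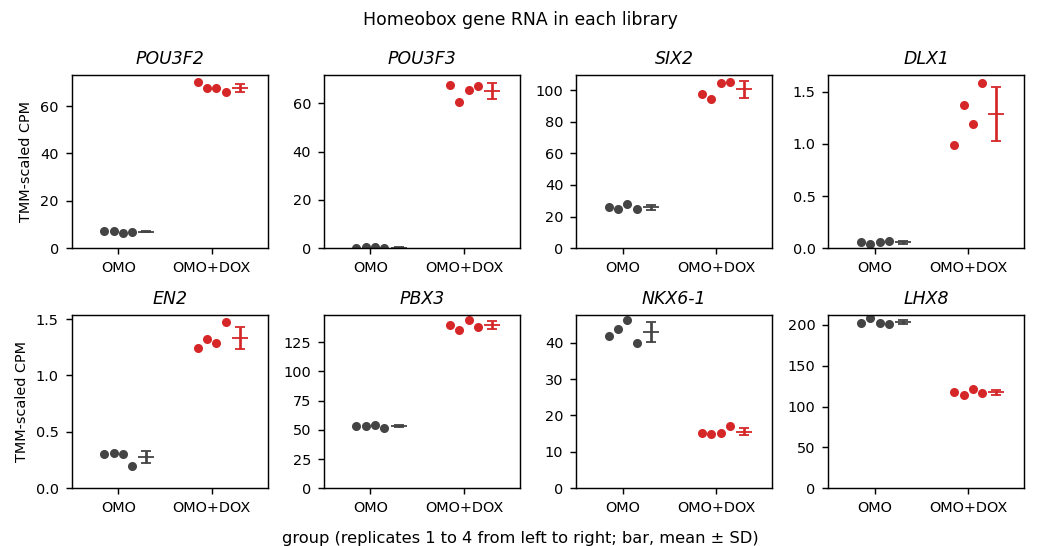
TMM-scaled CPM (vertical axis, from 0) of 8 homeobox genes in each library, with the mean and SD of each group of 4 beside the points. In every panel the OMO and OMO+DOX libraries are apart, with the first 6 genes higher in OMO+DOX and NKX6-1 and LHX8 lower. For POU3F3, DLX1 and EN2, which passed the filter through OMO+DOX only, the filter set the groups apart.

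Among the NK-like and other ANTP members, 10 of 26 were tested, 5 were higher and 2 lower. The members called higher here, DLX1 and EN2 among them, had little RNA in either group. DLX1 (ENSG00000144355.15, chr2:172084740-172089677, plus strand), which with DLX2 specifies GABAergic interneurons of the forebrain, was at 0.0612, 0.0387, 0.061 and 0.0672 CPM in OMO and 0.986, 1.37, 1.19 and 1.59 in OMO+DOX. From 11 and 238 counts it was 22.5 times higher (95% counting interval 12.3 to 45.6; log2FC 4.43, SE 0.27, adjusted p = 3.14e-08, edgeR). DLX2, whose start lies 18.2 kb away on the opposite strand, had 0, 0, 1 and 4 counts in OMO and 46, 34, 54 and 53 in OMO+DOX, a ratio of 38.8 (16.3 to 121), and was under the filter.

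EN2 (ENSG00000164778.4, chr7:155458129-155464831, plus strand), a gene of the developing cerebellum, was at 0.306, 0.31, 0.305 and 0.202 CPM in OMO and 1.24, 1.32, 1.29 and 1.48 in OMO+DOX. It passed the filter through the OMO+DOX libraries only, so its groups had to lie apart. From 55 and 249 counts the ratio was 4.70 (3.50 to 6.41; log2FC 2.23, SE 0.16, adjusted p = 1.66e-07, edgeR). EN1, its paralogue with the same helix codons, was at 1.51, 1.82, 2.15 and 1.97 and 2.03, 1.79, 1.8 and 2.2 CPM with overlapping groups (log2FC 0.07, SE 0.13, adjusted p = 0.637, edgeR), the smallest change of the class. NKX2-6 had 5 counts over the OMO libraries and 58 over OMO+DOX.

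NKX6-1, a factor of the ventral neural tube and of pancreatic beta cells (ENSG00000163623.9, chr4:84491987-84498450, minus strand), was the highest of this class per kb in OMO and had the largest fall of all tested members. It was at 41.8, 43.8, 46.1 and 39.8 CPM in OMO and 15.2, 15, 15.1 and 17 in OMO+DOX, with no overlap and 2.76 times lower (log2FC -1.46, SE 0.06, adjusted p = 1.21e-09, edgeR). NKX2-4 fell from 6.99 ± 0.624 to 5.08 ± 0.806 CPM (log2FC -0.46, SE 0.11, adjusted p = 0.00323, edgeR). DLX3, known from skin and placenta, and BARHL2 rose from 3.1 ± 0.406 to 8.33 ± 0.731 CPM (log2FC 1.43) and from 2.07 ± 0.117 to 3.09 ± 0.159 CPM (log2FC 0.58). DLX4, which starts 26.3 kb from DLX3, did not pass the test (log2FC 0.11, SE 0.09, adjusted p = 0.277, edgeR), nor did NKX3-2 (log2FC -0.08, SE 0.07, adjusted p = 0.345, edgeR).

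LIM factors specify neuronal subtypes, and of the 7 tested 2 were higher and 4 lower. LHX8, a factor of cholinergic forebrain neurons (ENSG00000162624.14, chr1:75128434-75161533, plus strand), had the most RNA per kb of the class and was at 203, 208, 202 and 202 CPM in OMO and 118, 115, 122 and 116 in OMO+DOX. No libraries overlapped and the level was 1.73 times lower (log2FC -0.79, SE 0.04, adjusted p = 6.15e-09, edgeR). LHX8 had non-whole counts in all 8 libraries, and the antisense gene AC099786.2 overlaps it at 89.9 ± 6.49 and 81.4 ± 1.09 CPM (log2FC -0.14), so part of the reads of this pair could be assigned to either.

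LHX2, a selector of cortex and eye, fell from 4.67 ± 0.184 to 2.44 ± 0.357 CPM (log2FC -0.93), ISL2 from 15.9 ± 1.79 to 8.96 ± 0.491 CPM (log2FC -0.83) and LHX4 from 12.3 ± 1.81 to 8.76 ± 1.27 CPM (log2FC -0.49, SE 0.12, adjusted p = 0.00345, edgeR), the last with overlapping groups. ISL2 and LHX4 had non-whole counts in all 8 libraries, so their values are uncertain to that extent. ISL1, the motor neuron factor related to ISL2, changed the other way, from 2.12 ± 0.237 to 6.23 ± 0.413 CPM (log2FC 1.55, SE 0.10, adjusted p = 5.73e-08, edgeR), as did LMX1B, a factor of serotonergic and dopaminergic neurons, from 0.519 ± 0.155 to 1.69 ± 0.131 CPM (log2FC 1.70). LHX6, of cortical interneurons, was at 3.2, 2.92, 2.87 and 2.8 and 3.33, 3.24, 3.19 and 3.5 CPM and did not pass (log2FC 0.17, SE 0.09, adjusted p = 0.103, edgeR). LHX3, which with LHX4 serves pituitary and motor neurons, was under the filter with 40, 41, 63 and 35 counts in OMO and 5, 4, 1 and 0 in OMO+DOX, 17.2 times lower (95% counting interval 9.16 to 36.6).

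TALE proteins of the PBX and MEIS families bind DNA with HOX and other homeodomain partners, and 4 of the 7 tested TALE members were higher and 2 lower. PBX2 had the most RNA per length in this class, at 142, 149, 146 and 149 CPM in OMO and 188, 181, 188 and 189.9 in OMO+DOX (log2FC 0.35, SE 0.04, adjusted p = 8.58e-06, edgeR), with non-whole counts in all libraries. PBX3 (chr9:125747345-125967377, plus strand) was at 53.3, 53.7, 54 and 52 CPM in OMO and 139.8, 136, 144 and 138 in OMO+DOX (log2FC 1.39, SE 0.04, adjusted p = 6.09e-11, edgeR). The groups were apart for both genes.

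PBX4 fell from 6.32 ± 0.667 to 3.26 ± 0.195 CPM (log2FC -0.96). MEIS2 and MEIS3 rose from 4.16 ± 0.273 to 11.2 ± 0.674 CPM (log2FC 1.42) and from 8.32 ± 0.765 to 22.8 ± 1.28 CPM (log2FC 1.45). The counts of MEIS2 were non-whole in 7 libraries. MEIS1 had the smallest change of the class, at 7.61, 7.2, 6.12 and 7.69 and 6.41, 5.68, 6.24 and 6.91 CPM (log2FC -0.18, SE 0.09, adjusted p = 0.0977, edgeR), and without OMO replicate 3 it was lower at a log2FC of -0.25 (adjusted p = 0.0126, edgeR). None of the 6 IRX genes, which pattern neural and heart territories, passed the filter.

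CUT factors were represented by CUX1, CUX2 and ONECUT2. CUX2, a marker of upper cortical layers, was at 56.7, 57.2, 55.4 and 58.9 and 49.6, 44.9, 45.5 and 46.6 CPM, the smallest change of the class (log2FC -0.29, SE 0.05, adjusted p = 0.000117, edgeR). CUX1, with the same helix codons and per length the higher of the pair in OMO+DOX, went the other way from 112, 107, 89.9 and 113 to 154, 147, 143 and 141 CPM (log2FC 0.47, SE 0.07, adjusted p = 6.68e-05, edgeR). ONECUT2, a factor of liver, retina and neurons, rose from 46.2 ± 9.44 to 88.5 ± 8.2 CPM (log2FC 0.94, SE 0.13, adjusted p = 3.93e-05, edgeR).

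Of the sets with identical helix codons, 3 had more than 1 tested member. CUX1 rose and CUX2 fell, EN2 rose while ISL2 fell and EN1 did not pass, and POU3F3 and POU6F1 both rose. In the set of NKX6-1, which fell, and in that of DLX4, which did not pass, the other members were under the filter, as were the members of the other 4 sets.

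OMO replicate 3 stood apart for long genes. Over the 1727 tested genes with more than 10 kb of annotated exon, each library was set against the mean of the others in its group. The median log2 difference was -0.22 in OMO replicate 3, against 0.05 to 0.10 in the other OMO libraries and -0.08 to 0.06 in the OMO+DOX libraries. For shorter genes it was 0.03 in OMO replicate 3. The 6 tested members above 10 kb include CUX1, ONECUT2, MEIS1, MEIS2 and POU2F1, and of the genes named all but MEIS2 were lowest among OMO libraries in replicate 3. The part of this library in their values was not tested beyond the fits without it. In these, the log2FC of POU2F1 was -0.70 and that of MEIS1 -0.25, against -0.57 and -0.18 with all libraries. That of ONECUT2 was 0.80 and that of CUX1 0.40, against 0.94 and 0.47 with all libraries.

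The levels of the members were ordered by CPM per kb of annotated exon. In OMO the highest levels included LHX8 at 51.2 ± 0.722, PBX2 at 33.7 ± 0.718, SIX5 at 19 ± 0.821, NKX6-1 at 13.9 ± 0.876, SIX2 at 11.8 ± 0.742 and PBX3 at 11.8 ± 0.196. SIX2 and PBX3 did not differ beyond the sum of their SDs. In OMO+DOX the order was SIX2 at 45.5 ± 2.41, PBX2 at 43 ± 0.952, PBX3 at 30.8 ± 0.766, LHX8 at 29.6 ± 0.758, POU3F3 at 21.3 ± 1.07 and POU3F2 at 13.9 ± 0.348, in which SIX2 and PBX2 lay within the sum of their SDs, as did PBX3 and LHX8. POU3F3 moved from rank 43 to rank 5 and SIX2 from rank 6 to rank 1. Taking the longest transcript as the length instead put PBX2, LHX8, PBX3 and SIX2 in that order at the top in OMO+DOX.

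**Figure D4:**
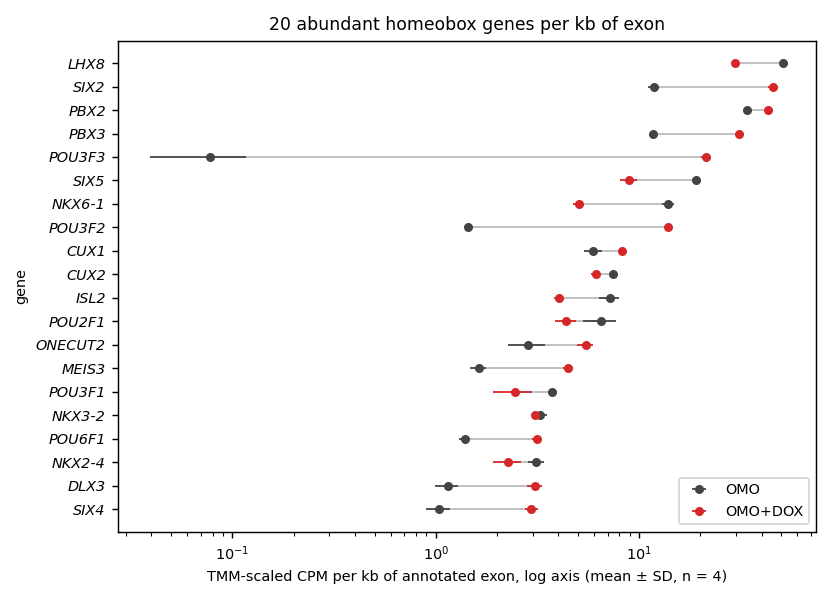
TMM-scaled CPM per kb of annotated exon (horizontal log axis, mean and SD of 4 libraries) for 20 abundant homeobox genes, in OMO and OMO+DOX. POU3F3 spans the widest distance, from rank 43 in OMO to rank 5 in OMO+DOX, and LHX8 is first in OMO.

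Of the 39 members under the filter, 4 (LHX5, NKX1-1, NKX2-1 and NKX2-8) had no count in any library. With them, 19 had at most 3 counts in every library, and the others included LHX1, LMX1A, IRX4, IRX6, NKX1-2, NKX2-2, NKX2-5, NKX6-2, NKX6-3, EMX2, BARHL1, ONECUT3, POU1F1 and POU2F3. The remaining 20 had a group mean of 0.0587 to 0.994 CPM in the group where they were higher. In an edgeR fit with no filter, 3.6% of 36881 genes were called higher and 2.09% lower. There, DLX2 (log2FC 5.11, adjusted p = 3.61e-11), NKX2-6 (3.42), POU4F2 (2.69) and IRX2 (2.44) of these 39 were called higher and LHX3 (-4.07, adjusted p = 7.26e-10) lower, and EMX1 (1.76), IRX3 (1.70) and SIX6 (1.35) were higher at an adjusted p below 0.05. POU4F2, a retinal ganglion cell factor, had 20 counts over OMO and 129 over OMO+DOX, and IRX2 had 29 and 159. Not passing in that fit were ONECUT1, LHX9, DLX5, DLX6, NKX2-3, POU2F2, POU4F3, POU5F1, POU5F2, SIX3, IRX1 and IRX5.

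Members lie in 8 clusters of start sites within 250 kb, which hold 17 genes. SIX4 rose, with SIX6 higher as well. DLX1 and DLX2 were both higher. DLX3 rose while DLX4 did not pass. SIX2 rose beside SIX3, which was under the filter in both groups. NKX2-4 fell beside NKX2-2, which had at most 3 counts in every library, and DLX5 and DLX6 were near the floor, while NKX2-1 and NKX2-8 were at 0.

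Noncoding genes on the opposite strand that overlap a member or start within 5 kb of it numbered 59, beside 44 members. Of these, 40 had at most 3 counts in every library, 7 were tested and 0 were called. Beside AC099786.2 at LHX8, AC074212.1 at SIX5 was lower (log2FC -0.70, SE 0.17, adjusted p = 0.00282, edgeR), as SIX5 was, and AC010478.1 at ISL1 was higher (0.58), as ISL1 was. The libraries came from a stranded kit, but whether counting used the strand is not given in the sources used here. Reads of pairs that overlap therefore cannot be told apart. AC010478.1 does not overlap ISL1, and the counts of both were whole in every library.

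The RNA of proteins that act with homeodomain factors was described in the same fit. A list of 26 cofactor genes, chosen with earlier results of these data known, held 23 that were tested. At an adjusted p below 0.05, 8 were higher (34.8%, against 38.5% of all genes) and 15 lower (65.2%, against 38.1%). Of the 23, 7 were called, against 7.12% of all genes. By direction 2 were called higher and 5 lower, against 4.38% and 2.75% of all genes. All 23 were above 1 CPM in all 8 libraries, and 3.5% of the genes with that much RNA were called. The median log2FC of the 23 was -0.48. Of the LIM cofactors, 2 were higher and 7 lower. LMO1 and LMO2, LIM-only proteins that compete for LDB1, were called lower, from 12.4 ± 1.93 to 1.27 ± 0.155 CPM (log2FC -3.27, SE 0.14, adjusted p = 1.16e-09, edgeR) and from 179 ± 14.1 to 28.9 ± 1.15 CPM (log2FC -2.63, SE 0.06, adjusted p = 1.17e-11, edgeR), as was SSBP3, which stabilises LDB1, from 515 ± 18.1 to 114 ± 5.73 CPM (log2FC -2.18). LMO4 had the largest rise of this group, from 30.4 ± 1.9 to 98.6 ± 2.24 CPM (log2FC 1.70). LDB1 itself, the hub of LIM complexes, was at 95.4 ± 1.75 and 79 ± 2.72 CPM (log2FC -0.27).

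Of the SIX-class cofactors, EYA2, a coactivator with phosphatase activity, was called lower, at 64.9, 65.1, 73.4 and 65.1 CPM in OMO and 14.4, 11.7, 13.1 and 13.9 in OMO+DOX (log2FC -2.34, SE 0.07, adjusted p = 7.39e-11, edgeR), while SIX2 and SIX4 were higher. DACH1, a corepressor of the same network, was called higher, at 12.8, 13.5, 10.3 and 12 and 81.4, 82.2, 81.2 and 75.4 CPM (log2FC 2.72, SE 0.08, adjusted p = 3.78e-11, edgeR). EYA3 rose (log2FC 0.18), DACH2 rose (log2FC 1.54), and EYA1 and EYA4 were under the filter.

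Among the Groucho-related TLE genes, TLE4 had the largest rise, from 2.18, 1.78, 1.87 and 1.9 to 26.6, 26, 25.9 and 26.2 CPM (log2FC 3.76, SE 0.07, adjusted p = 1.25e-12, edgeR). TLE3 had the largest fall, from 125 ± 2.15 to 31 ± 1.82 CPM (log2FC -2.01, SE 0.05, adjusted p = 1.67e-11, edgeR). TLE1 rose (log2FC 1.79), and TLE2, TLE5 and TLE6 fell. Of the TALE relatives, PKNOX1, a partner of PBX proteins, rose (log2FC 0.26) and PKNOX2, TGIF1 and TGIF2 fell, most of all PKNOX2 from 45.5 ± 2.42 to 21 ± 0.553 CPM (log2FC -1.11). LDB2, with at most 0.17 CPM in a group, was not tested.

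**Figure D5:**
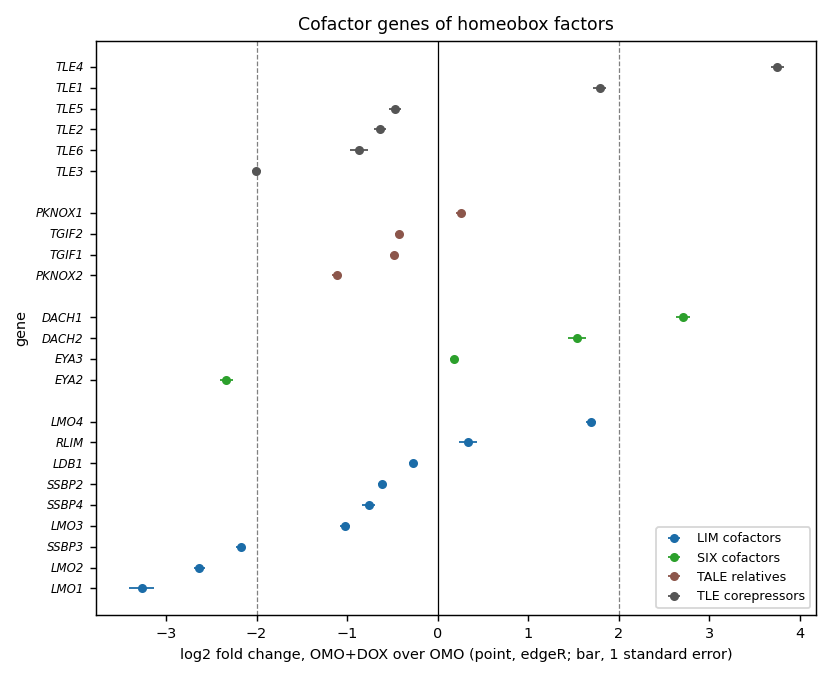
Log2 fold change (horizontal axis, OMO+DOX over OMO) of the 23 tested cofactor genes, in 4 groups, with bars of 1 standard error and dashed lines at 2 and -2. TLE4 and DACH1 lie beyond 2, and LMO1, LMO2, EYA2, SSBP3 and TLE3 beyond -2.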

How the data were processed

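PolyA+ RNA of D283-OMO cells was sequenced as paired 100-base reads from a stranded kit. Per the labels and the study's methods, the authors ran Trim Galore on the reads, used STAR to align them to GRCh38 with GENCODE 32, and ran RSEM per gene. They deposited expected counts per gene, which are not normalized, so reads matching several genes are already divided among them. Whether the counting used the strand is not given in the sources used here.

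Samples were grouped by their titles and treatment labels. Expected counts were rounded, genes past 1 CPM (unscaled) in 4 or more of 8 libraries were kept, and 15222 genes were fitted with edgeR 4.0.16 in R 4.3.3 (TMM, quasi-likelihood test, no covariates, Benjamini-Hochberg over all genes tested). The standard error is the log2FC over the root of the F statistic. Symbols, coordinates, exons and coding sequences came from GENCODE 29, which holds 58561 of the 60668 identifiers (96.5%), and promoters from RefSeq on GRCh38.p14. Total expected counts per library ranged from 38390696 to 54020506. Ratios of low counts have exact 95% binomial intervals, and these and the floor of 3 counts hold for counting error alone, because PCR copies cannot be recognised in these reads.

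Members, cofactor and marker lists were chosen with earlier results of these data known. Every member is accounted for. Values per library are given for called members and, in each class, for the member highest per kb and the member with the smallest change, and for others chosen after their values were seen. Called cofactors and the largest rise and fall of each cofactor group are named. Alternatives were scaling by DESeq2 size factors or by library size alone, DESeq2 1.42.0 (Wald test), a likelihood ratio test in edgeR, other filters and thresholds, the replicate number as a block, another gene length, and each replicate left out in turn. Some genes are counted but not reported here by name.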

Additional observations from a re-analysis of the deposited data

Results flagged for a closer look

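In each group of 4 libraries, the gap of the highest or lowest library to its nearest neighbour was set against the group's range with Dixon's test, which was done for 68 groups of tested members. Chance would mark about 3.4 of them, and 3 were marked. EN2 was at 0.202 CPM in OMO replicate 4, below 0.305 to 0.310 in the other OMO libraries. POU4F1 was at 0.837 CPM in OMO replicate 1, above 0.493 to 0.542. EN2 and POU4F1 passed the filter through the OMO+DOX libraries only, so that their groups lay apart was set by the filter. NKX6-1 was at 17.0 CPM in OMO+DOX replicate 4, above 14.95 to 15.2.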

How the results depend on the processing

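Of the log2FC of the 37 members under each alternative, 544 kept their direction and their side of an adjusted p of 0.05, 3 newly passed it and 2 changed sign. This tally did not count crossings of the fold threshold of a call. The filter on low counts moved the counts most. Where 1 CPM had to be passed in over 4 libraries, as the study's methods state, 31 members and 14301 genes were tested, 1 member (POU3F2) was called higher and 562 genes were called in all. With no filter, 9 members were called higher, 1 lower, and 2097 genes in all. Scaling by library size only moved the median log2FC of all genes from 0.01 to 0.14. Under it, SIX2 passed the fold threshold (log2FC 2.08, 6 members called higher), LHX6 (0.29) and DLX4 (0.24) passed an adjusted p of 0.05, and NKX3-2, which was not called, changed sign to 0.047. EN1, also not called, was at -0.026 without OMO replicate 1 and ranged up to 0.15 over the fits that left out a replicate. With each replicate left out in turn, 5 members were called higher and 0 lower in every fit, 20 were higher and 12 to 13 lower at an adjusted p below 0.05, and 1072 to 1091 genes and 6 to 7 cofactors were called. MEIS1 was the member gained, without OMO replicate 3.

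The replicate numbers were not shown to pair the libraries: deviations from the group means correlated at -0.163 to 0.223 between libraries of the same number and at -0.271 to 0.318 between others, and 1 of 4 OMO libraries correlated best with its own number. With the replicate number as a block, 1085 genes were called against 1084, 1082 of them shared, and the member counts were 5 and 0 as before. Of the 20 members under the filter with over 3 counts in some library, 8 passed an adjusted p of 0.05 when no filter was used, and none of the 19 with at most 3 counts in every library did.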
